A study of Mus musculus with 6 samples.

Results

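Hif1a and 9 genes known to respond to low oxygen or to carry glucose metabolism, were read in sorted calvarial osteocytes with and without estrogen receptor alpha (ERα). They were Hif1a, Vegfa, Adm, Slc2a1, Pgk1, Ldha, Pdk1, Bnip3, Angptl4 and Ankrd37, listed by name and matched to every probe set that the array annotation assigns to 1 of them alone. This gave 10 genes of 18193 on the array and 23 probe sets of 45101, and no probe set named 1 of them beside another gene. All 10 genes passed the filter on low levels and were among the 10916 genes tested.

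The study used 3 arrays of control mice and 3 of mice that lack ERα in osteocytes, which the protocol writes as ERαΔOcy/ΔOcy. The controls are called wild-type littermates in the sample labels and ERαflox/flox in the protocol. All mice were C57/BL6 females labelled as 10 to 12 days old, and both genotypes carried Dmp1-GFP, a green fluorescent reporter under the promoter of the osteocyte gene Dmp1. Cells came from the last 3 of 6 enzyme digestions of calvarial bone and were sorted for fluorescence, so the arrays hold cells that the reporter marks together with what else passed the gate. The sources used here name neither the Cre line nor whether controls carried Cre, and an effect of Cre cannot be told apart from that of ERα loss. The design text says RNA was not pooled while the protocol speaks of pooled tissue. The p-values therefore measure the spread between these arrays, which may not be that between mice. Of 11 osteocyte markers 10 were above the level limit, with Fgf23 below it.

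Cells sense oxygen through hypoxia-inducible factor (HIF). Its alpha subunits, among them the product of Hif1a, are hydroxylated by the Egln enzymes when oxygen is present and are then bound by Vhl and degraded. In low oxygen the alpha subunit pairs with Arnt and binds short DNA elements near genes for glucose uptake, glycolysis, blood vessel growth and mitochondrial turnover. Osteocytes lie enclosed in mineralised matrix, and in cells of the bone lineage HIF is known for driving Vegfa and with it the growth of vessels into bone. Since HIF-1α is controlled mainly as a protein, the Hif1a transcript is not a reading of HIF activity.

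The DNA letters that HIF binds were searched for as a description of the promoters of these genes. The list holds genes known to respond to low oxygen, so many matches were likely beforehand and are no independent result. The core is ACGTG or GCGTG, and it was searched on both strands in the 250 bases before each start site of the RefSeq promoter table (GRCm38.p6), with overlapping matches counted once. Of the 10 genes 9 had a promoter there, 12 start sites in all. A match lay before at least 1 start site of each of the 9 genes, against 41.5% of all 27018 genes searched. Of the 12 start sites 10 had a match, against 38.6% of all 32841 promoters searched. These promoters are rich in G and C, and among the 13477 promoters with at least 55% of these letters 58.3% held a match, as did 9 of the 10 promoters of these genes with that content. Windows of 6 genes are shown, 5 whose arrays are described at length and Bnip3, which had the most matches before a single start site, with each core in capitals and 10 bases on either side of the outermost ones.
Adm, chr7:110627557-110627617, plus strand: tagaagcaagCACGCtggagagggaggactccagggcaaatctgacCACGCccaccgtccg
Ldha, chr7:46845649-46845784, plus strand: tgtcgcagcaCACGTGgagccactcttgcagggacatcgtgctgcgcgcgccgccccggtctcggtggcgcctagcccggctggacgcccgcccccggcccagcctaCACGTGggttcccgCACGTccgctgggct
Slc2a1, chr4:119108674-119108723, plus strand: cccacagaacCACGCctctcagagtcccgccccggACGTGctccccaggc
Pdk1, chr2:71873136-71873160, plus strand: gcctacatggGCGTGtctttaacca
Pgk1, chrX:106186940-106186983, plus strand: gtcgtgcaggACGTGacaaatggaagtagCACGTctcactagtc
Bnip3, chr7:138909527-138909633, minus strand: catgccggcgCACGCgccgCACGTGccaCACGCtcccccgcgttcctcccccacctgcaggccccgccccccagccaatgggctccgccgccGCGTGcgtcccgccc

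In the Ldha window the matches begin 145, 48 and 34 bases before the start, and the first and the second are the palindrome CACGTG, which reads as a core on both strands. In the Adm window both matches are the GCGTG form on the minus strand. Vegfa had no match before 1 of its start sites and 2 before the other, and Angptl4 had no entry. These letters are a description of the sequence and do not show that HIF was bound.

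The 10 genes did not move as 1 group. Ldha and Angptl4 were higher and Adm was lower in every knockout array than in every control array, Slc2a1 and Pdk1 were higher on average with overlapping arrays, and Hif1a, Vegfa, Bnip3 and Ankrd37 differed by -0.03 to 0.06 on the log2 scale. Levels are log2(signal + 16) after quantile normalisation, so differences of dim genes are understated. In limma's fit over all 10916 genes, 0 of the 10 passed a Benjamini-Hochberg adjusted p of 0.05, as did 0% of all genes in either direction. At an unadjusted p under 0.05, Ldha and Angptl4 were higher, where 5.85% of all genes were, and Adm was lower, where 4.69% were. The arrays of the groups did not overlap for 2 higher and 1 lower of the 10 genes, against 9.23% and 7.76% of all genes. Of the 10 genes 6 were higher and 4 lower, with a median difference of 0.10, beside 5270 higher and 5646 lower and a median of -0.01 over all genes tested. With 3 arrays a group, the smallest 2-sided p of an exact permutation test is 0.1.

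**Figure D1:**
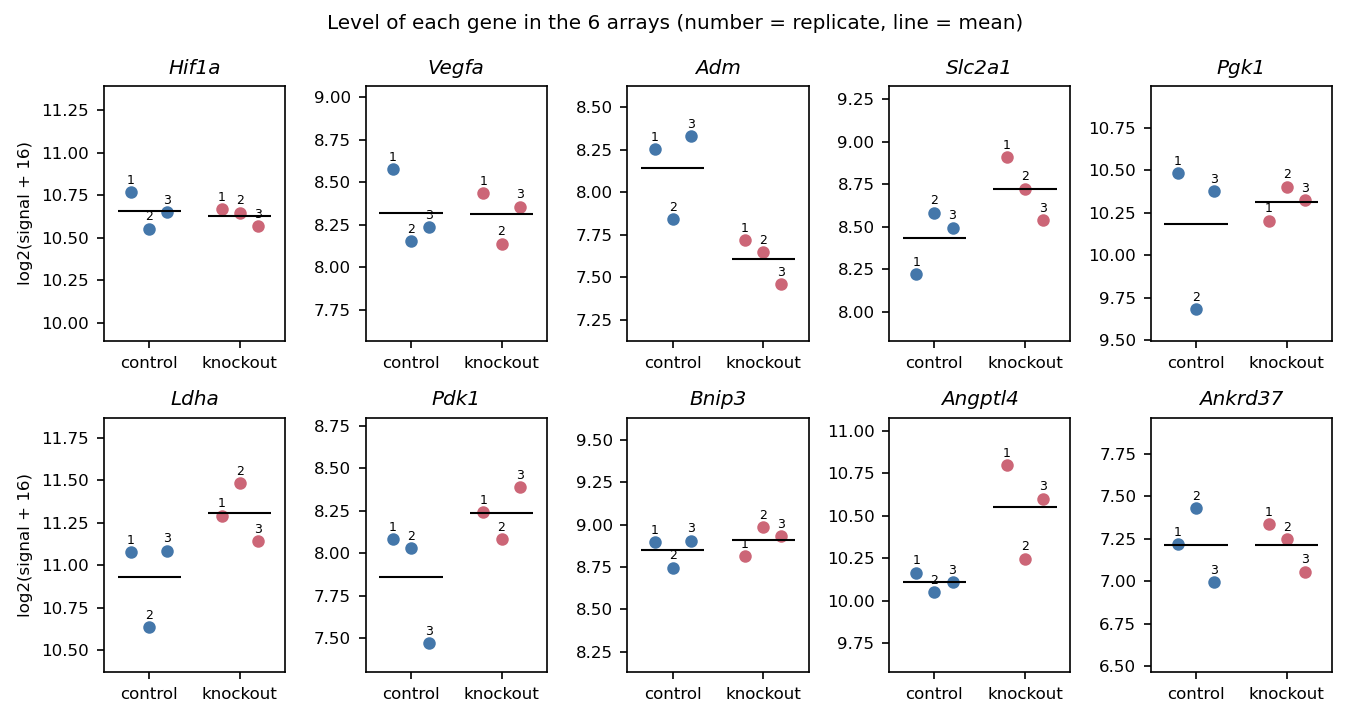
Level of each of the 10 genes, as log2(signal + 16), in the 3 control (blue) and 3 knockout (red) arrays, with the replicate number beside each point and a line at the group mean; all panels span the same range of log2 units. The groups stand apart for Adm, Ldha and Angptl4, and control replicate 2 is low for Pgk1 and Ldha.

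Hif1a, which encodes the oxygen-regulated subunit of HIF-1, had the narrowest spread of the 10 genes. Its levels were 10.77, 10.55 and 10.65 in the control arrays, replicates 1 to 3 in order, against 10.67, 10.65 and 10.57 in the knockout arrays. All knockout arrays lay inside the range of the control arrays. The difference was -0.03 ± 0.09 (SE, n = 3 each, limma adjusted p = 0.926), with a 95% interval from -0.23 to 0.17. Of the other 3 probe sets of Hif1a, 1 differed by -0.07 and the remaining 2 were under the level limit of 5.37.

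Among the secreted signals, Adm stood out. It encodes adrenomedullin, a peptide that widens vessels and acts on their endothelium. The deposited signals were 304.6, 196.3 and 267.2 in the control arrays, replicates 1 to 3 in order, against 190.8, 175.8 and 202.9 in the knockout arrays. After normalisation the levels were 8.25, 7.84 and 8.33 in control and 7.72, 7.65 and 7.46 in knockout arrays. All knockout arrays were lower than the lowest control array, control replicate 2, although in the deposited signals knockout replicate 3 was above it. The difference was -0.53 ± 0.15 (SE, n = 3 each, limma adjusted p = 0.333), 1.45-fold lower. The second probe set of Adm, whose suffix _x_at marks probes shared with other sequences, differed by -0.29 ± 0.14 (SE) with overlapping arrays. Without control replicate 2 the difference was -0.68 ± 0.12 (SE) and Adm alone of the 10 genes passed (limma adjusted p = 0.0334), where 212 genes were called lower (1.94%) and 86 higher (0.788%). No other array, when left out, gave a call for Adm.

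Markers of pericytes and smooth muscle, the contractile cells of vessel walls, were also lower in knockout arrays on average. This held for all 9 tested markers of this list, 0 of them past the threshold, with a median of -0.49. The groups did not overlap for 4 of the 9, against 7.76% of all genes. Without control replicate 2, where Adm passed, 6 of the 9 passed as lower, against 1.94% of all genes. They were Rgs5, Acta2, Tagln, Myh11, Des and Notch3, and the median of the list was -0.79. The summed deposited signal of the list was 23448, 14258 and 21329 in the control arrays, replicates 1 to 3 in order, against 14579, 13715 and 16369 in the knockout arrays. Control replicate 2 was the lowest control array for both the list and Adm. By the mean log2 level of the markers, each centred over the 6 arrays, it was the lowest of all arrays for the list (-0.33). For Adm it lay above all knockout arrays. By the same measure it was also the lowest array for the osteocyte (-0.25), endothelial (-0.17) and skeletal muscle (-3.86) markers. No marker of the list was under the level limit, and the list's part in the Adm difference was not tested. In bulk samples, fewer cells of a type and less RNA per cell cannot be told apart.

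Vegfa, the main growth factor of blood vessels, had levels of 8.58, 8.15 and 8.24 in control and 8.44, 8.14 and 8.36 in knockout arrays. Control replicate 1 was the highest and knockout replicate 2 the lowest, so the groups overlapped throughout. The difference was -0.01 ± 0.14 (SE, n = 3 each, limma adjusted p = 0.988), with a 95% interval from -0.34 to 0.32. Its second, dimmer probe set read otherwise, at 6.59, 6.55 and 6.43 in control and 6.30, 6.31 and 6.16 in knockout arrays. All 3 knockout arrays lay under all control arrays there, with a difference of -0.26 ± 0.13 (SE). Probe positions were not used here, so which Vegfa transcripts each probe set reads is not known.

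Angptl4, a secreted inhibitor of lipoprotein lipase, had the highest mean difference of the 10 genes. Its deposited signals were 1194, 976.6 and 951.0 in control and 1749, 1154 and 1910 in knockout replicates 1, 2 and 3. The normalised levels were 10.17, 10.05 and 10.11 in control and 10.80, 10.25 and 10.60 in knockout arrays. The control arrays lay within 0.12 of each other while the knockout arrays spread over 0.55, with knockout replicate 2 close to control replicate 1; its deposited signal was below that array's. The difference was 0.44 ± 0.14 (SE, n = 3 each, limma adjusted p = 0.377), 1.36-fold higher. The second probe set differed by 0.60 ± 0.22 (SE), with control replicate 2 at 7.02 above knockout replicate 2 at 6.86. Angptl4 is known from fat cells, and the adipocyte markers Adipoq, Plin4, Cidec, Lep and Pparg were under the level limit. The 2 adipocyte markers above it, Fabp4 and Cd36, which endothelial cells also express, differed by -0.30 and -0.26.

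Slc2a1 encodes GLUT1, the glucose transporter through which most cells take up glucose. Its levels were 8.22, 8.58 and 8.49 in control and 8.91, 8.72 and 8.54 in knockout arrays. Knockout replicates 1 and 2 were above all control arrays, and knockout replicate 3 was just under control replicate 2. The difference was 0.29 ± 0.14 (SE, n = 3 each, limma adjusted p = 0.511), 1.22-fold higher, with a 95% interval from -0.03 to 0.61. Without control replicate 1, its lowest array, it was 0.19. All 3 probe sets were higher on average, the other 2 by 0.18 and 0.11, and after normalisation the arrays overlapped at each. The deposited signals of the brightest were 297.2, 344.2 and 301.2 in control and 454.3, 389.5 and 448.9 in knockout arrays. On that scale, where array medians differ, every knockout array was above every control array.

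Ldha, the lactate dehydrogenase subunit that favours making lactate from pyruvate, was read by 1 probe set. Its deposited signals were 2212, 1478 and 1884 in the control arrays, replicates 1 to 3 in order, against 2450, 2765 and 2803 in the knockout arrays. The normalised levels were 11.08, 10.64 and 11.09 in control and 11.29, 11.48 and 11.14 in knockout arrays. Every knockout array was above every control array, but knockout replicate 3 exceeded control replicate 3 by little. The difference was 0.37 ± 0.15 (SE, n = 3 each, limma adjusted p = 0.442), 1.29-fold higher. Without control replicate 2, the lowest array, it was 0.22 ± 0.11 (SE).

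Pgk1, the phosphoglycerate kinase of the first ATP-forming step of glycolysis, depended on the same array. Its levels were 10.48, 9.68 and 10.38 in control and 10.20, 10.40 and 10.32 in knockout arrays. Control replicate 2 lay far below the others, and the knockout arrays lay between it and control replicate 1. The difference was 0.13 ± 0.20 (SE, n = 3 each, limma adjusted p = 0.856), and without control replicate 2 it was -0.12 ± 0.10 (SE). The 3 probe sets of Pgk1 disagreed, at 0.13, -0.05 and 0.44 ± 0.13 (SE). The second and the last have the suffix _x_at, which marks probes shared with other sequences. The last had 8.54, 8.25 and 8.09 in control and 8.80, 8.77 and 8.64 in knockout arrays. These groups did not overlap, unlike those of the brighter probe sets, so the direction of Pgk1 is uncertain.

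Markers of skeletal muscle, a tissue rich in glycolytic enzymes, differed widely between the arrays. The summed deposited signal of the 12 muscle markers was 39544, 209.6 and 34098 in the control arrays, replicates 1 to 3 in order, against 4930, 4536 and 22350 in the knockout arrays. Of the markers 10 were tested, with 4 higher and 6 lower and 0 past the threshold. Without control replicate 2 all 10 were lower in knockout arrays, with a median of -2.47. Acta1 and Actn3 then passed as lower, where 1.94% of all genes did. That imbalance in muscle signal therefore stands beside each call made without that array, those of Adm, Epas1, Lpl, Tfrc and Bhlhe40. Myh3 and Myh8 were under the level limit. Control replicate 2, low in muscle signal, was also the lowest array for Hif1a, Pgk1, Ldha, Bnip3 and Angptl4, 5 of the 10 genes. Among knockout arrays, replicate 3 had the most muscle signal. Its Ldha was the lowest of the knockout arrays after normalisation (11.14) and the highest in the deposited signals (2803). The part of muscle RNA in the differences of these genes was not tested.

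**Figure D2:**
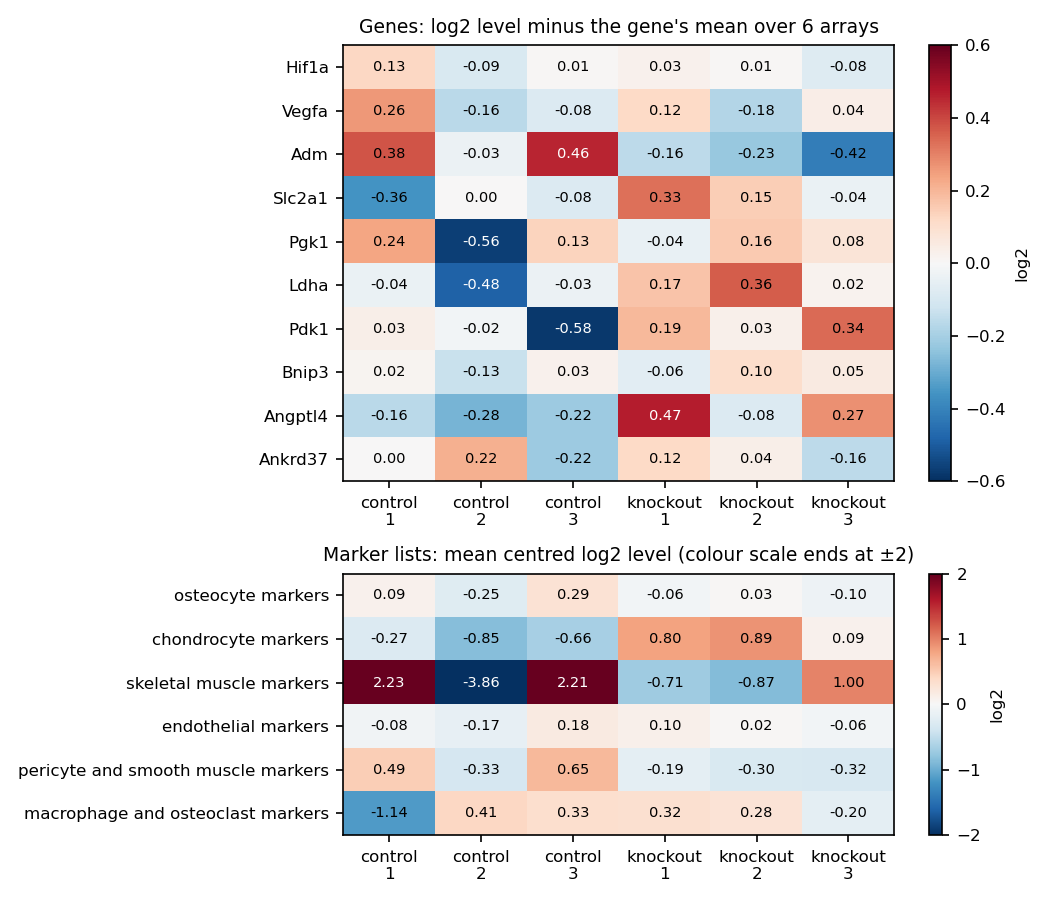
Log2 level of each of the 10 genes minus its mean over the 6 arrays (top), and the mean centred level of 6 marker lists of cell types on the same arrays (bottom); columns are arrays and each cell prints its value. Control replicate 2 is the lowest array for Pgk1 (level 9.68), Ldha (level 10.64) and the skeletal muscle markers (centred level -3.86), and chondrocyte markers are higher in all 3 knockout arrays.

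Pdk1 encodes a kinase that switches off pyruvate dehydrogenase. Its levels were 8.08, 8.03 and 7.47 in control and 8.24, 8.08 and 8.39 in knockout arrays. Control replicate 3 was low, and the other control arrays met knockout replicate 2. The difference was 0.38 ± 0.18 (SE, n = 3 each, limma adjusted p = 0.513), 1.30-fold higher. It was 0.18 without control replicate 3 and 0.068 when its probe sets were averaged, since 2 of the other 3 probe sets differed by 0.02 and -0.01. The remaining one, under the level limit, differed by -0.11.

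Bnip3, a receptor that marks mitochondria for removal, had 8.90, 8.75 and 8.91 in control and 8.82, 8.98 and 8.93 in knockout arrays. The arrays of both groups mixed within 0.24, with a difference of 0.06 ± 0.10 (SE, n = 3 each, limma adjusted p = 0.857). Ankrd37, an ankyrin repeat protein used as a marker of HIF activity, had deposited signals of 139.9, 144.1 and 97.2 in control and 142.8, 129.0 and 149.2 in knockout arrays. Control replicate 3 was the lowest, and the other arrays of both groups mixed. The normalised levels were 7.21 ± 0.22 in control and 7.21 ± 0.14 in knockout arrays (SD). Its difference was 0.00 ± 0.14 (SE, n = 3 each, limma adjusted p = 1.00), with a 95% interval from -0.33 to 0.33.

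**Figure D3:**
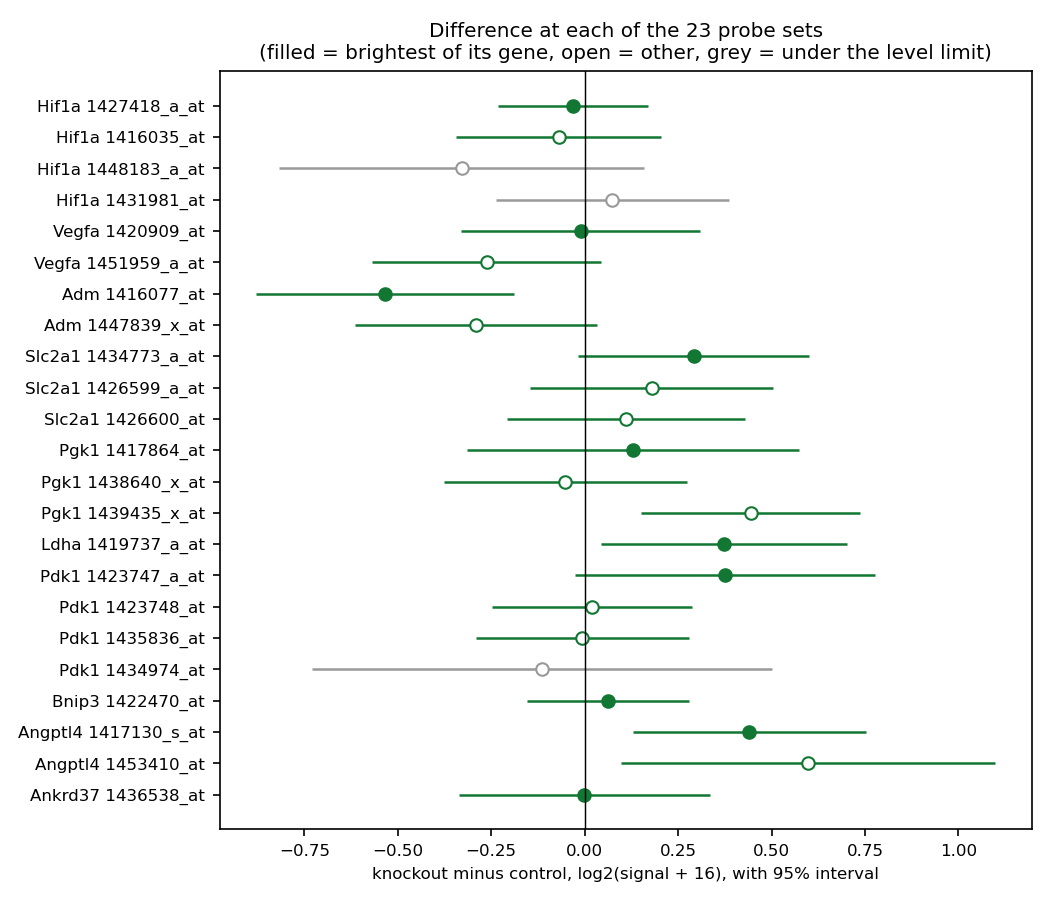
Knockout minus control difference on the log2(signal + 16) scale at each of the 23 probe sets, with the 95% interval of the limma fit over all probe sets; filled points are the brightest probe set of a gene, open points its others, and grey ones lie under the level limit. Both probe sets of Angptl4 lie at 0.44 and 0.60, both of Adm at -0.53 and -0.29, and those of Pgk1 and Pdk1 fall on both sides of 0.

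At the 20 probe sets above the level limit, 11 were higher and 9 lower in knockout arrays. Groups stood apart at 3 higher probe sets, of Ldha, Angptl4 and Pgk1, and at 2 lower ones, of Adm and Vegfa, against 10.2% and 7.59% of all 21040 probe sets above the limit, unnamed ones included. Both probe sets of Adm, of Vegfa and of Angptl4 and all 3 of Slc2a1 had 1 sign within the gene. Probe sets of 1 gene read the same RNA and are not replicates.

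The signs of the smallest differences depended on how arrays were scaled. Array medians of the deposited signal ran from 18.7 to 28.6, with knockout replicate 3 the highest. With the deposited scaling the median of all genes tested moved from -0.01 to 0.14, and 9 of the 10 genes were then higher. Relative to that median Hif1a, Vegfa and Ankrd37 differed by -0.01, 0.00 and 0.01, Ldha by 0.40, Angptl4 by 0.46, Slc2a1 by 0.30 and Adm by -0.52. Under this scaling 30 genes passed in all, each higher, and 0 of the 10. Across all 16 alternatives Adm was lower and Slc2a1, Ldha, Pdk1, Bnip3 and Angptl4 were higher on average.

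**Figure D4:**
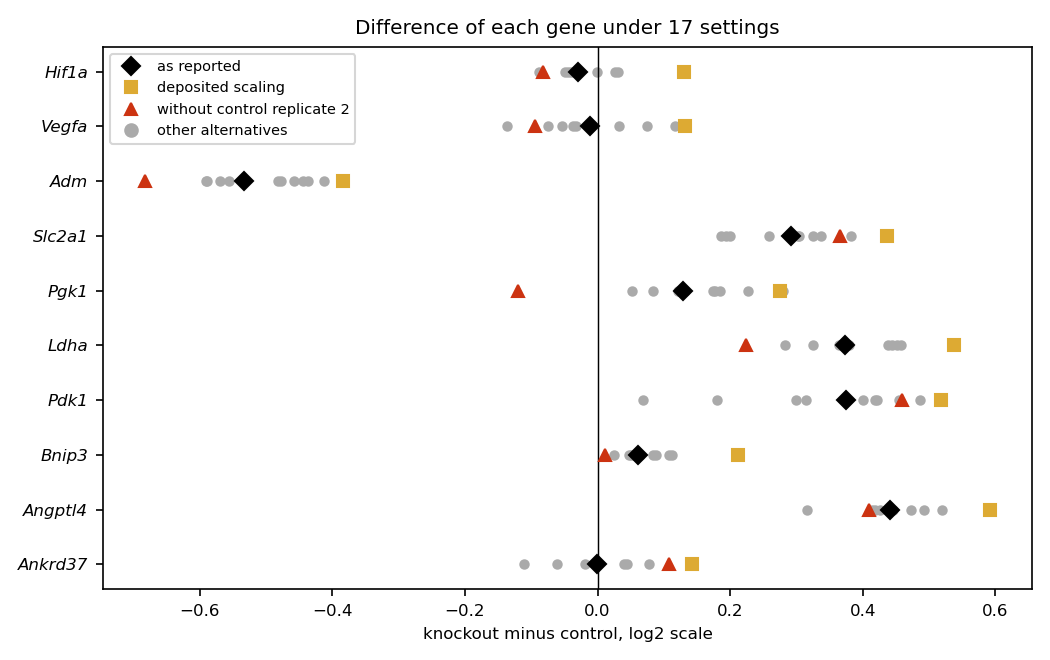
Knockout minus control difference of each of the 10 genes on the log2 scale under the reported setting (diamonds), with the deposited scaling (squares), without control replicate 2 (triangles) and under the other alternatives (grey circles). Adm stays below 0 and Slc2a1, Ldha, Pdk1, Bnip3 and Angptl4 above 0, while Hif1a, Vegfa, Pgk1 and Ankrd37 lie on both sides.

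Of 86 further genes of oxygen sensing, glucose use and vessel signalling, 80 had a probe set and 71 were tested. Of these 31 were higher and 40 lower with a median of -0.02, beside -0.01 for all genes tested, and 0 passed in either direction (limma, smallest adjusted p = 0.248). Before adjustment 3 higher and 3 lower genes had p under 0.05, where 5.85% and 4.69% of all genes did. Groups stood apart for 5 higher and 3 lower of the 71, against 9.23% and 7.76% of all genes. With the deposited scaling 50 were higher and 20 lower of 70, with a median of 0.11 beside 0.14 for all genes tested. Without control replicate 2, 2 of 70 passed as higher and 2 as lower, where 0.788% and 1.94% of all genes did.

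Of 12 oxygen sensing genes, 4 were higher and 8 lower (median difference -0.09), and with the deposited scaling 8 were higher and 4 lower (0.055). Epas1, the HIF-2α subunit that is abundant in vessels, had 10.57, 10.12 and 10.88 in control and 10.20, 9.97 and 9.85 in knockout arrays. Control replicate 2 lay among the knockout arrays. Epas1 differed by -0.51 ± 0.19 (SE, n = 3 each, limma adjusted p = 0.420). Leaving out control replicate 2 gave -0.71, which passed (limma adjusted p = 0.0442). Cited2, which competes with HIF for a coactivator, differed by -0.29, Arnt2 by 0.44 and Hif1an, a hydroxylase that blocks HIF activity, by -0.15. The degradation factor Vhl differed by 0.01 ± 0.14, and the hydroxylases Egln1, Egln2 and Egln3 by -0.08, -0.10 and 0.18.

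Of 13 tested glycolysis enzymes beside Pgk1 and Ldha, 7 were higher and 6 lower (median difference 0.03), against 9 and 4 with the deposited scaling. Hk1, a hexokinase, differed by -0.34 and Pfkm, the muscle form of phosphofructokinase, by -0.26, with overlapping arrays. Eno2, an enolase, differed by 0.37 and Ldhb, the other lactate dehydrogenase subunit, by -0.20, and their groups stood apart. The Ldhb probe set has the suffix _x_at, which marks probes shared with other sequences. Of 6 tested glucose and lactate transporters beside Slc2a1, 2 were higher and 4 lower, against 3 and 3 with the deposited scaling. Slc16a1, a lactate transporter, differed by 0.33 and its chaperone Bsg by 0.12, while the glucose transporters Slc2a3 and Slc2a8 differed by -0.29 and -0.21. Their arrays overlapped in each case.

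Of 10 genes of pyruvate dehydrogenase and its regulators, 3 were higher and 7 lower (median difference -0.09), and with the deposited scaling 7 were higher. Pdk2, a kinase of the same family as Pdk1, had 5.60, 5.89 and 5.97 in control and 5.43, 5.35 and 5.00 in knockout arrays. All its knockout arrays lay below control, with a difference of -0.56 ± 0.18 (SE, n = 3 each, limma adjusted p = 0.377). Pdha1, a catalytic subunit, was lower in every knockout array by a small amount (-0.12 ± 0.08, SE). With the deposited scaling it was at 0.04, where the median of all genes tested was 0.14. Pdk4 and Pdhx differed by -0.20 and 0.21 with overlapping arrays.

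Of 18 other hypoxia targets tested, 10 were higher and 8 lower (median difference 0.07), against 15 and 3 with the deposited scaling. Tfrc, the transferrin receptor of iron uptake, had 8.97, 9.26 and 8.92 in control and 9.57, 9.81 and 9.52 in knockout arrays, a difference of 0.59 ± 0.13 (SE, n = 3 each, limma adjusted p = 0.248). Bhlhe40, a transcriptional repressor, had 8.89, 9.68 and 9.28 in control and 10.13, 9.94 and 9.75 in knockout arrays, a difference of 0.66 ± 0.20 (SE, n = 3 each, limma adjusted p = 0.373). Both had separate groups and both passed without control replicate 2 (limma adjusted p = 0.0286 and 0.0370). Stc2, a secreted glycoprotein, differed by 0.33 with separate groups, and P4ha2, a collagen prolyl hydroxylase, by -0.38 with overlapping ones. Hmox1, the heme-degrading enzyme, had the lowest difference of the list, -0.66 ± 0.49 (SE), with control arrays at 7.66, 9.47 and 9.61 and knockout arrays at 8.66, 8.24 and 7.85. Control replicate 1 was the lowest array, and the difference without it was -1.29. Macrophage and osteoclast markers, cells in which Hmox1 is known to be abundant, were low in the same array, at centred levels of -1.14, 0.41 and 0.33 in control and 0.32, 0.28 and -0.20 in knockout arrays. Their part in the Hmox1 difference was not tested. Car9, a carbonic anhydrase widely used as a marker of hypoxia, was under the level limit, with control arrays at 4.30 ± 0.21 and knockout arrays at 4.89 ± 0.25 (SD). Chondrocyte markers moved with the groups, with 11 of 12 higher and 0 past the threshold. Their groups did not overlap for 10 higher and 1 lower of the 12, against 9.23% and 7.76% of all genes. With the deposited scaling 8 of the 12 passed as higher, of 30 genes in all. Without control replicate 2, where Tfrc and Bhlhe40 passed, 5 passed as higher, against 0.788% of all genes. Their summed deposited signal was 2856 to 4541 in control and 5823 to 8103 in knockout arrays, no marker was under the level limit, and their part in the differences of hypoxia targets was not tested.

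Of 12 tested receptors, partners and VEGF family relatives of Vegfa, Adm and Angptl4, 5 were higher and 7 lower (median difference -0.04). The relatives were Vegfb, Vegfc and Pgf. With the deposited scaling 8 were higher and 3 lower of 11. Calcrl, the receptor of adrenomedullin, differed by -0.34 ± 0.23 (SE) and its partners Ramp1 and Ramp2 by -0.16 and 0.16, while Ramp3 was under the level limit. The Vegfa receptors Kdr and Flt1 differed by 0.12 ± 0.27 and -0.04 ± 0.23 (SE). Lpl, the lipase that Angptl4 inhibits, had 11.15, 10.06 and 11.26 in control and 10.47, 10.44 and 10.40 in knockout arrays. The knockout arrays lay close together between control replicate 2 and the other control arrays. Its difference was -0.39 ± 0.29 (SE, n = 3 each, limma adjusted p = 0.670). Leaving out control replicate 2 gave -0.77, which passed (limma adjusted p = 0.00880). Gpihbp1, which holds Lpl on endothelium, differed by 0.18. Of 9 endothelial markers tested, 7 were higher and 2 lower, 0 past the threshold. Without control replicate 2, where Lpl passed, 6 were higher and 3 lower. Tek and Esam then passed as lower, as did 1.94% of all genes.

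**Figure D5:**
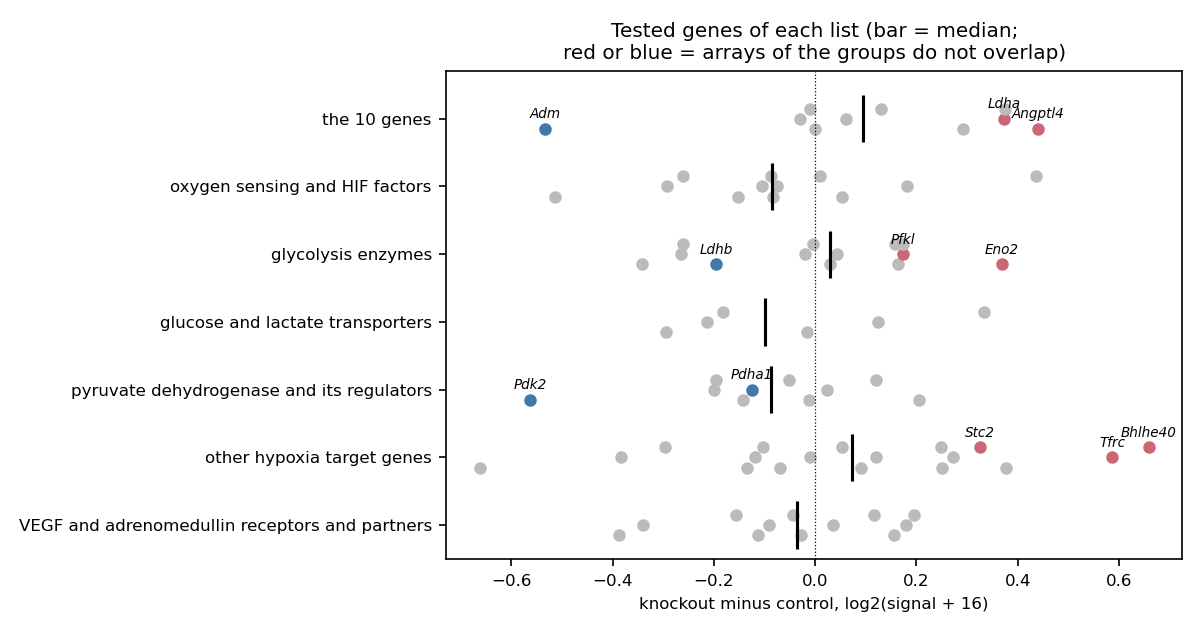
Knockout minus control difference on the log2(signal + 16) scale of each tested gene, by list, with a bar at the median; red and blue genes, named, are higher or lower in every knockout array than in every control array, and grey genes overlap. The medians of the 6 further lists lie between -0.10 and 0.07.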

How the data were processed

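Signals of 45101 probe sets on 6 Affymetrix arrays were used. The authors deposited 1 linear intensity per probe set and array. Per the submitters' processing notes the software was GCOS. The sources used here do not give its version, background correction, probe summary or scaling. Detection calls were not used. After 64 control probe sets were left out, log2(signal + 16) was computed. Arrays were quantile normalised because their medians differed by 0.36, above a limit of 0.25. Of the probe sets 34945 had 1 gene symbol, updated through RefSeq gene identifiers where found, and 932 had several and were not named. The brightest probe set stood for its gene. Of 18193 genes, the 40% with the lowest mean level, under 5.37, were left out. Knockout was compared with control in limma 3.58.1 under R 4.3.3 (lmFit, then eBayes with a trend, 2-sided), with Benjamini-Hochberg adjustment over 10916 genes. The fit was tested on simulated data with independent noise for each gene. That simulation held no deviation shared by the genes of an array, so it does not cover such deviations here.

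The genes and lists were chosen with earlier results of these data known. Of each further list, members past the threshold and otherwise up to 4 with the smallest p were to be named. Outside that rule, Vhl, the 3 Egln genes, Ramp2, Ramp3, Kdr, Flt1, Hmox1, Car9, Fabp4 and Cd36 were added with their values in view. Alternatives covered scaling, the constant added, the level filter, the choice of probe set, the model and leaving out each array.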

Additional observations from a re-analysis of the deposited data

How the results depend on the processing

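The count of 0 called genes became 30 with the deposited scaling and 1 with median centring, and ran from 0 to 298 with 1 array left out, the highest without control replicate 2. The count of 0 called among the 10 genes ran from 0 to 1 with 1 array left out. The median difference of the 10 genes was 0.24 with the deposited scaling, where that of all genes was 0.14. It was 0.050 with array weights, 0.065 with averaged probe sets and 0.14 with median centring, and ran from 0.059 without control replicate 2 to 0.15 without control replicate 1. Signs turned for 4 genes. With the deposited scaling Hif1a, Vegfa and Ankrd37 were at 0.13, 0.13 and 0.14, and with median centring at 0.031, 0.033 and 0.044. Ankrd37 was at 3.7e-05 with log2(signal + 1) and at 0.040 with array weights. With 1 array left out the ranges were -0.082 to 0.026 for Hif1a, -0.095 to 0.12 for Vegfa, -0.12 to 0.28 for Pgk1 and -0.11 to 0.11 for Ankrd37. The cause of these turns was not tested. With the replicate number as a block, 0 genes passed and the median of the 10 genes was 0.10; the block changed no call. Same-numbered arrays did not deviate together (r across genes of -0.38, 0.10 and -0.04), and not every array correlated best with its own number. With so few arrays a group, these correlations cannot decide whether same-numbered samples shared more than a number, such as a litter or a preparation.

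The number of arrays limits the precision. The median standard error of a difference was 0.14 on the log2 scale, and the 95% intervals of Hif1a, Vegfa, Bnip3 and Ankrd37 include differences of that size.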

Other observations

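Related enzymes, glucose transporters and HIF subunits were set against each other within each array, which takes out most of any scaling. The 4 pairs were chosen after their values were seen, so they are given with no test. The log2 level of Ldha minus that of Ldhb was 3.28, 2.70 and 3.36 in the control arrays, replicates 1 to 3 in order, against 3.75, 3.83 and 3.46 in the knockout arrays. This balance of the lactate dehydrogenase subunits was higher by 0.57 in knockout arrays, and by 0.59 with the deposited scaling. For Pdk1 minus Pdk2 the values were 2.49, 2.14 and 1.49 in control and 2.81, 2.73 and 3.39 in knockout arrays, higher by 0.94. For Slc2a1 minus Slc2a3 they were 0.58, 0.43 and 0.37 in control and 1.16, 1.37 and 0.61 in knockout arrays, with knockout replicate 3 close to control replicate 1. For Hif1a minus Epas1 they were 0.20, 0.43 and -0.23 in control and 0.46, 0.67 and 0.72 in knockout arrays. The groups stood apart in all 4 pairs, but the share over all pairs of genes was not computed. Pdk1 was read at its brightest probe set, while its others above the level limit differed by 0.02 and -0.01. Pdk2 was dim, with deposited signals from 20.7 to 40.6. Ldhb was read at a probe set with the suffix _x_at, which marks probes shared with other sequences. Such a balance shows that the members of a pair differed unequally, not which of them did, and one probe set's level does not measure its RNA against another's.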
